A study of Mus musculus with 2 samples.

Results

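The gastrokines Gkn1, Gkn2 and Gkn3 and the trefoil factors Tff1 and Tff2, small proteins secreted by the mucous cells of the stomach, were followed across the cell clusters of tumors grown from mouse dysplastic stem cells. They were taken by name, and all 5 are among the 18319 genes named in the table analysed. The cells came from 2 libraries, made on the inDrop droplet platform from female NuJ mice, a name used for an athymic nude strain. A cystic adenocarcinoma was taken 10 weeks after injection of the cells called DP-DSC in the labels, and a tubular adenocarcinoma 13 weeks after it. Both groups therefore share the host strain, the sex and the injected cells, and differ in tumor type and in time, with 1 library each. No untreated or normal stomach sample is among them.

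The values are the authors' own comparisons of 11 clusters, which carry no tumor label, so cystic and tubular tumors could not be compared. For each cluster the table lists genes with a linear fold above 1.5 and a p-value. Against which cells a fold was taken is not stated there; comparison with all remaining cells is usual. Below, a gene is listed in a cluster where the table gives it, and raised where its fold is 2 or more and its p 0.05 or less. With 1 library for each tumor no p can rest on replicate animals, so the deposited p is used as a filter and is not printed. The sources used here do not give the cells in a cluster or the transcripts counted, so depth is unknown, and no fold has an error across animals. A gene that is not listed may have been lower, equal or too weakly measured.

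Gastrokines are secreted proteins with a BRICHOS domain. In the normal stomach Gkn1 and Gkn2 mark the surface and pit mucous cells, and in the mouse Gkn3 marks mucous neck cells. Trefoil factors carry the disulfide-knotted trefoil domain, travel with mucins in the mucus layer and promote closure of the epithelium after injury. Tff1 belongs to pit cells beside the mucin Muc5ac, and Tff2, once named spasmolytic polypeptide, belongs to mucous neck cells beside the mucin Muc6 and gave its older name to a metaplasia of the injured stomach. Human GKN2 is known to form a disulfide-linked dimer with TFF1.

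All 5 genes were raised in clusters 6 and 9. The trefoil pair alone passed both limits in cluster 3, and Tff2 alone did so in cluster 7. Gkn1 and Gkn3 had larger folds in cluster 3, 4.01 and 3.22, than Tff2 and Tff1, at 2.36 and 2.16. They missed only the p limit there, while Gkn2, at 1.62, was below the fold limit. The share of listed genes passing the p limit differed widely, at 16.0%, 36.8%, 74.5% and 97.3% for clusters 3, 7, 6 and 9. Being raised or not therefore does not separate the families by fold in cluster 3. Of the 55 possible pairs of a member and a cluster, 17 were listed and 13 raised. In cluster 6 all 5 were raised, where 20.3% of all named genes were raised, and in cluster 9 all 5 were raised against 26.6% of all named genes. In cluster 3 all 5 were listed, against 29.9% of all named genes, and 2 were raised against 4%. In cluster 7 the count was 1 of 5 raised, against 3.42%. In cluster 5 only Gkn3 was listed, where 20.6% of all named genes were, and none was raised against 4.32%. Clusters 1, 2, 4, 8, 10 and 11 listed 0 of the 5. Of all named genes these clusters listed 6.34%, 9.07%, 31.5%, 26.4%, 18.9% and 25.7%, and raised 1.82%, 2.89%, 18.6%, 6.36%, 4.9% and 17%, in the same order. Being listed was common in clusters 6 and 9, at 36.4% and 38.9% of all named genes, and less so in cluster 7, at 12.1%. At a fold of at least 3 the raised members numbered 0 in clusters 3 and 7, 4 in cluster 6 and 3 in cluster 9, and at a p of at most 0.001 they numbered 3 in cluster 6 and 0 in cluster 7.

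In cluster 6 the folds of all 5 members lay above the median of the listed genes, in cluster 9 those of all but Tff2, and in cluster 3 those of Gkn1 and Gkn3. The median deposited fold of the 5 members was 3.85 in cluster 6 and 3.85 in cluster 9, beside medians of 2.57 and 2.46 over all genes listed there. In cluster 3 it was 2.36, beside 2.73 over all listed genes. In cluster 7 the fold of Tff2, 2.22, stood beside a median of 3.80.

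**Figure D1:**
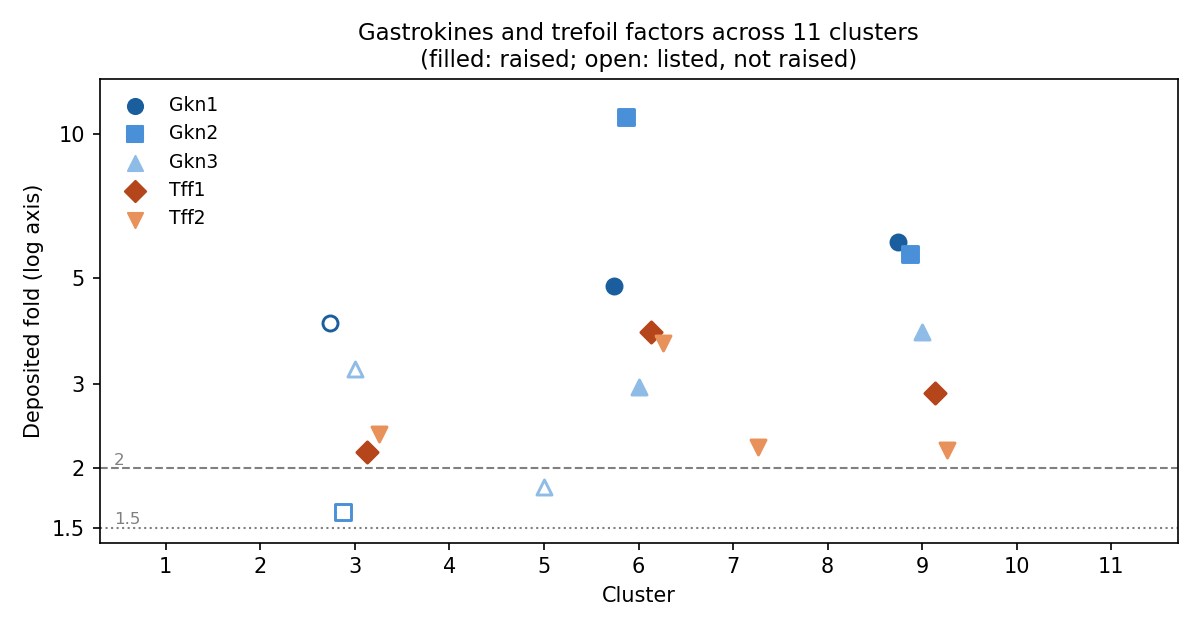
The deposited fold (vertical, log axis) of each gastrokine and trefoil factor in each of 11 clusters (horizontal), with filled symbols for raised and open symbols for listed but not raised; dashed and dotted lines mark folds of 2 and 1.5. Symbols stand in clusters 3, 5, 6, 7 and 9 only, and the highest is Gkn2 in cluster 6 at 10.8.

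The sharing of clusters was counted over all named genes. All 5 members were listed in clusters 3, 6 and 9 together, as were 1828 of the named genes (9.98%). All 5 were raised in both clusters 6 and 9, as were 1697 genes (9.26%). The 3 gastrokines were among the 1193 genes (6.51%) raised in clusters 6 and 9 and in no other cluster. For Gkn1 and Gkn3, cluster 3 was left out by the p limit alone. Tff1 and Tff2 were among the 96 genes (0.524%) raised in clusters 3, 6 and 9. The clusters come from the same libraries and their folds may share reference cells, so these shares describe the table and are not a test.

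Gkn1, a secreted protein of the pit cell that is often lost in human gastric cancer, had folds of 4.01, 4.82 and 5.94 in clusters 3, 6 and 9, respectively, according to the authors' deposited table. It was raised in clusters 6 and 9. In cluster 3 its deposited p was above 0.05, and it stood at place 1209 of 5474 genes in the order of p. Gkn1 was the member of largest fold in cluster 9, where 90.6% of the 7131 listed genes had a smaller fold, and in cluster 3, where 71.1% did.

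Gkn2, the partner of trefoil factor in the human dimer, had the largest fold of any member in any cluster, 10.8 in cluster 6, beside 5.60 in cluster 9 and 1.62 in cluster 3 according to the authors' deposited table. Its values were the most uneven of the 5. In cluster 6 it ranked 232 by fold among 6664 listed genes, with 96.5% of them below it, while in cluster 3 only 7.29% of the listed genes had a smaller fold. In cluster 3 it was therefore listed just above the limit of the table and was not raised.

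Gkn3, the gastrokine of mouse mucous neck cells, had folds of 3.22, 1.83, 2.96 and 3.85 in clusters 3, 5, 6 and 9, respectively, per the authors' deposited table. It was raised in clusters 6 and 9 and had the smallest fold of the 5 in cluster 6. In clusters 3 and 5 its place by p, 5117 of 5474 and 3547 of 3765, was near the end of the list. The listing in cluster 5 is the only one of a gastrokine outside clusters 3, 6 and 9.

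The 3 gastrokine genes are neighbors on mouse chromosome 6 within 43286 bases, and the bases before their starts are shown because the genes were listed together in clusters 3, 6 and 9. In GENCODE M21 on GRCm38 (mm10), Gkn1 (ENSMUSG00000030050.4) lies from 87345650 to 87350942 on the minus strand, Gkn2 (ENSMUSG00000030049.5) from 87373357 to 87379497 on the plus strand, and Gkn3 (ENSMUSG00000030048.5) from 87383256 to 87388935 on the minus strand. All of them are protein-coding. The 250 bases before the RefSeq start of each gene, read 5′ to 3′ on the strand of the gene in GRCm38.p6, follow, with capitals for the letters of 3 motifs found on either strand, which are the GATA factor core GATAA, the TATA box letters TATAAA and the forkhead letters TGTTTNC. They were read for 3 of the 5 members and span chr6:87350916-87351165 for Gkn1, chr6:87373115-87373364 for Gkn2 and chr6:87388936-87389185 for Gkn3.
Gkn1: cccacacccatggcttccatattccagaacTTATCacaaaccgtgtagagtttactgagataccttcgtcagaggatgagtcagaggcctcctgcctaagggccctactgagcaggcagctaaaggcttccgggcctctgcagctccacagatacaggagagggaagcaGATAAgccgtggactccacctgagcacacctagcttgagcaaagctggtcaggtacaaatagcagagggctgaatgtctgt
Gkn2: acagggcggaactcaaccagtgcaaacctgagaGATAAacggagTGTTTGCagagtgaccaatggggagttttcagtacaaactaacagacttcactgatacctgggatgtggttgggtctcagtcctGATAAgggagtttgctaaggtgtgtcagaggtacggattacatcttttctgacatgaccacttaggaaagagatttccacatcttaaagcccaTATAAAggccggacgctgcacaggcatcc
Gkn3: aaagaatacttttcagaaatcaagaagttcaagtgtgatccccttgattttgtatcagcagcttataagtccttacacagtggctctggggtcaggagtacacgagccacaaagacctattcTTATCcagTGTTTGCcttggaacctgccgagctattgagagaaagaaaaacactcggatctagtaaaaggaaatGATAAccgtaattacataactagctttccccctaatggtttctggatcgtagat

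GATAA occurred at 2 places in each of the 3 gastrokine windows. It was present in 22.6% of the 32851 windows of the same length in the RefSeq table. TATAAA occurred only before Gkn2, 29 bases before its start, and in 12.4% of all windows. TGTTTNC occurred at 1 place before Gkn2 and 1 before Gkn3, as the form TGTTTGC, and in 17.8% of all windows. No motif match overlapped another in these windows. A match describes letters only, and no binding was measured.

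Tff1, the trefoil factor of pit cells, had folds of 2.16, 3.85 and 2.87 in clusters 3, 6 and 9 according to the authors' deposited table, and was raised in all of these. It stood much earlier in the order of p than the gastrokines, at place 198 of 5474 in cluster 3 and 355 of 6664 in cluster 6, and at 2985 of 7131 in cluster 9. Its fold in cluster 3 is the lowest of any member called raised. In cluster 6, 73.7% of the listed genes had a smaller fold, and in cluster 3 33.1% did.

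Tff2, the trefoil factor of mucous neck and metaplastic cells, was raised in 4 clusters, more than any other member. Its folds were 2.36, 3.66, 2.22 and 2.18 in clusters 3, 6, 7 and 9 per the authors' deposited table. Its fold was in the lower part of the listed genes outside cluster 6: 39.7%, 71.3%, 22.6% and 39.3% of them, in the same order of clusters, had smaller folds. By p it was the first of the 5 in every cluster that listed it, at place 62 of 5474, 88 of 6664, 446 of 2217 and 2884 of 7131 genes, again in that order. In clusters 3, 6, 7 and 9 together, taken because Tff2 was raised in each, 8 genes of the table (0.0437%) were raised. Beside Tff2 they were the secreted chaperone clusterin (Clu), the actin-binding protein cortactin (Cttn), the keratin Krt18, the transcription factor Mecom and the ribosomal protein genes Rpl21, Rpl26 and Rps2, a set named after its values were seen.

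Tff1 (ENSMUSG00000024032.7) lies on chromosome 17 from 31161395 to 31165277 and Tff2 (ENSMUSG00000024028.7) from 31141049 to 31144282, both protein-coding and on the minus strand, in GENCODE M21 on GRCm38. Tff3, the intestinal trefoil factor of goblet cells, lies beside them from 31125306 to 31129646, within a span of 39972 bases from Tff3 to Tff1, and was listed in 0 of the 11 clusters. The transcripts of the 5 members and Tff3 had no run of 31 bases in common in any of their 15 pairings, so no read matching such a run exactly could be shared between them.

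**Figure D2:**
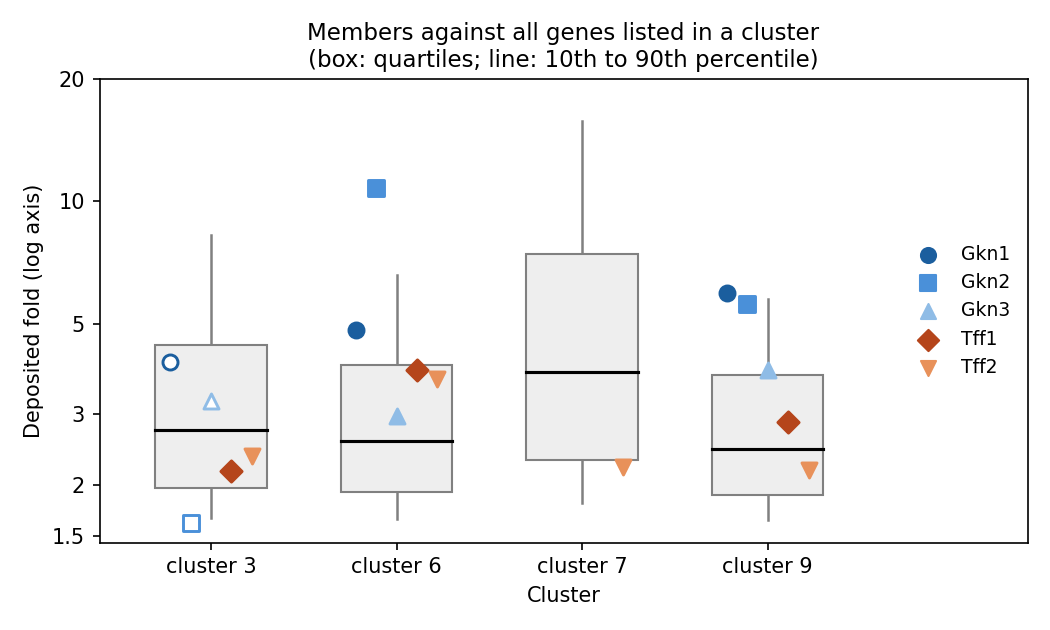
Deposited folds (vertical, log axis) of the 5 genes in the clusters where any was raised, over boxes that give the quartiles and median of all genes listed in that cluster and lines from the 10th to the 90th percentile; open symbols were not raised. Gkn2 in cluster 6 stands above the line at 10.8, Gkn1 in cluster 9 above it at 5.94, and Tff2 in cluster 7 stands below the box at 2.22.

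The order of the members differed between the clusters. In cluster 6 the deposited folds ran from Gkn2 through Gkn1, Tff1 and Tff2 to Gkn3, and in cluster 9 from Gkn1 through Gkn2, Gkn3 and Tff1 to Tff2. A fold compares a gene with its own reference, so this order is not an order of expression levels. From cluster 6 to cluster 9 the fold of Gkn2 was lower, at a ratio of 0.518, and so were those of Tff2 at 0.596 and Tff1 at 0.746. The folds of Gkn1 and Gkn3 were higher in cluster 9, at ratios of 1.23 and 1.30. Over the 4071 genes listed in both clusters the median ratio was 0.958, with quartiles of 0.675 and 1.33. Gkn2 and Tff2 therefore lay below the lower quartile, with 14.5% and 19.4% of the shared genes at a smaller ratio, and the other members lay between the quartiles. No error is available for these ratios.

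Between clusters 3 and 6, Gkn2 had the lowest ratio of the members. Its fold in cluster 3 was 0.15 of that in cluster 6, and 0.188% of the 2665 genes listed in both had a smaller ratio. The ratios of the other members were 0.833 for Gkn1, 1.09 for Gkn3, 0.563 for Tff1 and 0.645 for Tff2, beside a median of 1.06 over the shared genes. The fold of Gkn2 in cluster 3 was also 0.289 of that in cluster 9, with 1.36% of 2869 shared genes below it.

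**Figure D3:**
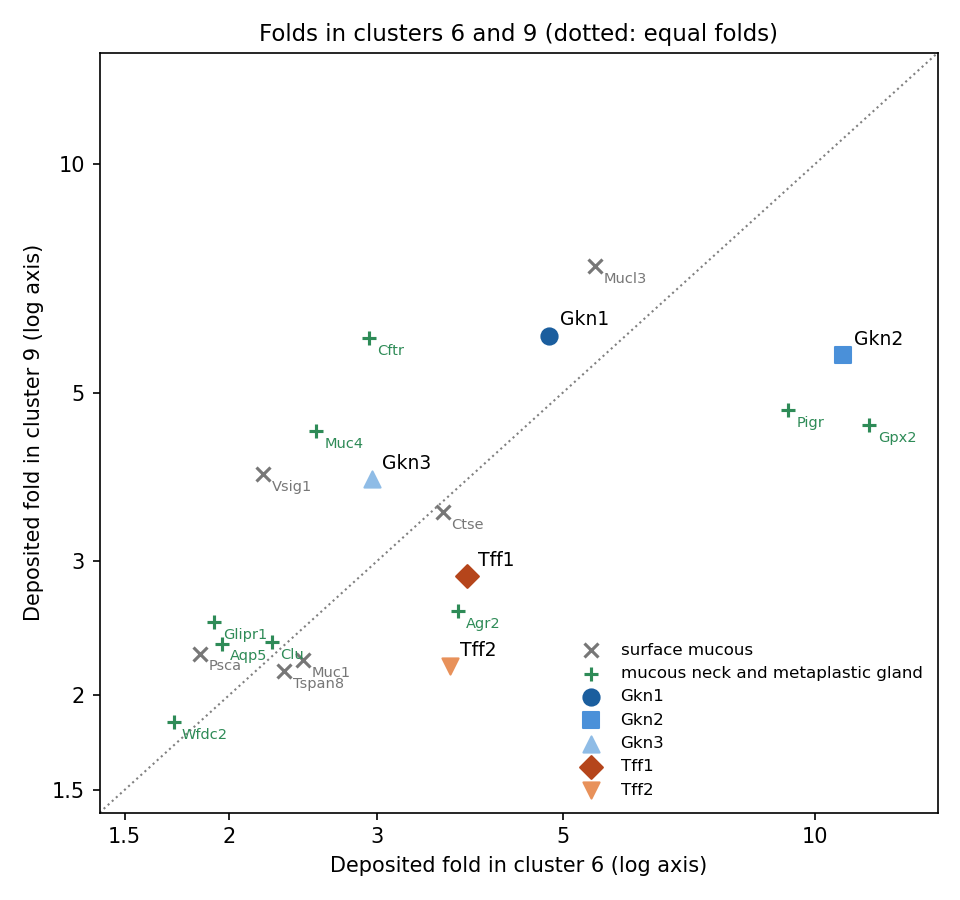
Deposited fold in cluster 6 (horizontal, log axis) against cluster 9 (vertical, log axis) for the 5 members and for the surface mucous and mucous neck genes listed in both clusters; the dotted line marks equal folds. Gkn1 and Gkn3 lie above the line and Gkn2, Tff1 and Tff2 below it, Gkn2 at 10.8 against 5.60.

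The genes that accompany these secreted proteins in gastric mucous cells were counted from lists, beside the shares of all named genes raised given above. Each count is over the genes of a list that the table names, since the others have no value. Of 8 named surface mucous genes, from a list of 13, the raised numbered 3, 5, 1 and 7 in clusters 3, 6, 7 and 9, and 2 in cluster 2, where no member was listed. The median deposited fold of those listed was 2.33 in cluster 6, below the 2.57 of all listed genes, and 3.48 in cluster 9 and 3.20 in cluster 3, above the 2.46 and 2.73 there. The mucin-like gene Mucl3 had folds of 5.46 in cluster 6 and 7.34 in cluster 9, and the aspartic protease cathepsin E (Ctse) had 3.60 and 3.48 according to the authors' deposited table. In cluster 9 the sulfotransferase Sult1c2 had 4.05 and the immunoglobulin-domain protein Vsig1 3.90 per the authors' deposited table. In cluster 6 the transmembrane mucin Muc1 had 2.45 according to the authors' deposited table and was also raised. In cluster 3 Muc1 was at 3.27, Ctse at 3.20 and Mucl3 at 2.15 per the authors' deposited table. Anxa10, an annexin of gastric epithelium, was the single surface mucous gene raised in cluster 7, at 2.19, and was also raised in cluster 2 at 2.31 according to the authors' deposited table. At a p of at most 0.01 it was not raised in cluster 7. Muc5ac, the secreted mucin of pit cells, is not named in the table used here.

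Mucous neck and metaplastic gland genes were raised in the clusters where Tff2 was and in others. Of 14 genes, all named, the raised numbered 4, 5, 3 and 8 in clusters 3, 6, 7 and 9, and 3, 1, 1 and 1 in clusters 4, 5, 8 and 10, where no member was raised. At a p of at most 0.01 the count in cluster 7 was 0. Olfm4, a marker of metaplastic and stem cells, was raised at 3.99 in cluster 4 and 22.3 in cluster 10 according to the authors' deposited table. In cluster 10, 6 of 7 named neutrophil genes were also raised, so Olfm4 alone does not mark metaplastic cells there. The median fold of those listed was 2.54, 2.39, 3.06 and 2.53 in clusters 3, 6, 7 and 9, close to or below the medians of all listed genes. Cluster 6 was led by the glutathione peroxidase Gpx2 at 11.6, the immunoglobulin receptor Pigr at 9.29 and the disulfide isomerase Agr2 at 3.75 per the authors' deposited table. Cluster 9 was led by the chloride channel Cftr at 5.90, Pigr at 4.74 and Gpx2 at 4.53 according to the authors' deposited table. Cluster 3 had Cftr at 7.54, the water channel Aqp5 at 3.69 and the scavenger receptor Dmbt1 at 2.69 per the authors' deposited table. In cluster 7, where Tff2 was the only member listed, the secreted protein Wfdc2 was at 3.75, Clu at 2.38 and Aqp5 at 2.10 according to the authors' deposited table, and all were raised. Muc6, the mucin with which Tff2 is layered, was raised in cluster 4 at 7.76 per the authors' deposited table, a cluster with all 10 macrophage genes raised and no member listed. Muc6 was also listed without being raised in cluster 8 at 3.16 and in cluster 9 at 1.57 according to the authors' deposited table.

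Goblet and intestinal genes were raised beside the members as well. Of 6 named genes, from a list of 13, the raised numbered 4, 3, 5 and 0 in clusters 3, 6, 9 and 7, and 1 in cluster 2. At a p of at most 0.01 the count in cluster 3 was 2. Those listed had median folds of 3.54, 4.50 and 4.25 in clusters 3, 6 and 9, above those of all listed genes. The actin-bundling protein villin (Vil1) had 8.40 in cluster 3 and 5.97 in cluster 9, and the secreted Clca1 had 6.14 in cluster 6 and 4.24 in cluster 3 per the authors' deposited table. The keratin Krt20 had 3.28, 4.50 and 3.83 in clusters 3, 6 and 9 according to the authors' deposited table, stood first of all genes in the order of p in cluster 9, and was raised in each. The lectin Lgals4 had 2.68 in both clusters 3 and 6, 2.05 in cluster 9 and 2.22 in cluster 2 per the authors' deposited table. The mucus protein Fcgbp, which is known to bind trefoil factor, had 8.37 in cluster 9 and was raised, and had 7.67 in cluster 6 without being raised per the authors' deposited table. Spink4, a secreted goblet cell gene, had 4.68 in cluster 9 according to the authors' deposited table. Muc2, the intestinal goblet mucin, is not named in the table used here.

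Enzymes that build and export mucins were raised most often in clusters 6 and 9. Of 18 named genes, from a list of 21, 8 were raised in cluster 6 and 8 in cluster 9, against 1 in cluster 3 and 0 in cluster 7. Among the clusters without a raised member the count was highest in cluster 4, at 4. The listed ones had median deposited folds of 3.11, 2.67 and 2.58 in clusters 3, 6 and 9. Galnt12, which starts mucin-type glycans, had the largest fold in both, 5.71 in cluster 6 and 6.70 in cluster 9 per the authors' deposited table. In cluster 6 Agr2 followed at 3.75 and the branching enzyme Gcnt3 at 3.14, and in cluster 9 the elongating enzyme B3gnt3 at 5.13 and Galnt3 at 4.35 according to the authors' deposited table. Gcnt3 was the gene of this list raised in cluster 3, at 3.47 per the authors' deposited table.

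Transcription factors of the gastric epithelium were raised in clusters with and without raised members. Of 19 named factors, from a list of 22, the raised numbered 4, 7, 6 and 0 in clusters 3, 6, 9 and 7, and 4 in cluster 5 and 3 in cluster 2, where no member was raised. At a p of at most 0.01 the count in cluster 3 was 0. The listed factors had median folds of 2.22, 3.19 and 2.14 in clusters 3, 6 and 9. Gata4, a GATA factor of the stomach, had 7.41 in cluster 3, 3.02 in cluster 6 and 3.08 in cluster 9 according to the authors' deposited table, and was raised in each. Its relative Gata5 had 8.27 in cluster 6 and 2.52 in cluster 9 per the authors' deposited table. Gata6 was raised in cluster 6 alone, at 2.15 according to the authors' deposited table. It was also listed at a larger fold in cluster 5, 8.95, where it missed only the p limit, and at 1.72 in cluster 3. The forkhead factor Foxq1, needed for mucin production in mouse pit cells, was raised at 2.12, 2.45, 3.44 and 2.36 in clusters 3, 5, 6 and 9 per the authors' deposited table. Foxa3 had 6.51 and Spdef, a factor of secretory mucous cells, 5.44 in cluster 6, and in cluster 9 the antral factor Pdx1 had 5.70 and Ehf 4.64 according to the authors' deposited table. Foxa2 had 2.33 in cluster 3 and 13.3 in cluster 5, where Sox2, a factor of the foregut and stomach, had 14.1 per the authors' deposited table.

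Proposed receptors and binding partners of the family were raised in clusters with and without raised members. Of 11 named partners, from a list of 14, the raised numbered 2, 2, 1 and 4 in clusters 3, 6, 7 and 9. They numbered 1, 2, 1, 1 and 3 in clusters 2, 4, 5, 10 and 11. The listed ones had median folds of 2.68, 3.28, 8.05 and 2.65 in clusters 3, 6, 7 and 9, with only 2 listed in cluster 7. The protease-activated receptor F2rl1 had 4.12 in cluster 6 and 3.04 in cluster 9, and the growth factor receptor Egfr had 2.65 in cluster 9 and 3.36 in cluster 11 according to the authors' deposited table. Stat3, a transcription factor activated through the receptor subunit Il6st, was raised in cluster 7 at 3.37, and also in clusters 4 and 11, at 2.17 and 2.62, per the authors' deposited table. Cxcr4, a chemokine receptor through which Tff2 is reported to act, was raised in cluster 10 alone, at 8.05 according to the authors' deposited table, beside 6 of 7 named neutrophil genes. Its relative Ackr3 was raised in cluster 11 alone, at 34.9 per the authors' deposited table, beside 11 of 11 fibroblast genes. Of 7 other BRICHOS genes the table names 3, none of them raised in clusters 3, 6, 7 or 9. Itm2a had 58.1 in cluster 11, Itm2c 6.77 in cluster 1 and Itm2b 2.03 in cluster 2 according to the authors' deposited table.

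**Figure D4:**
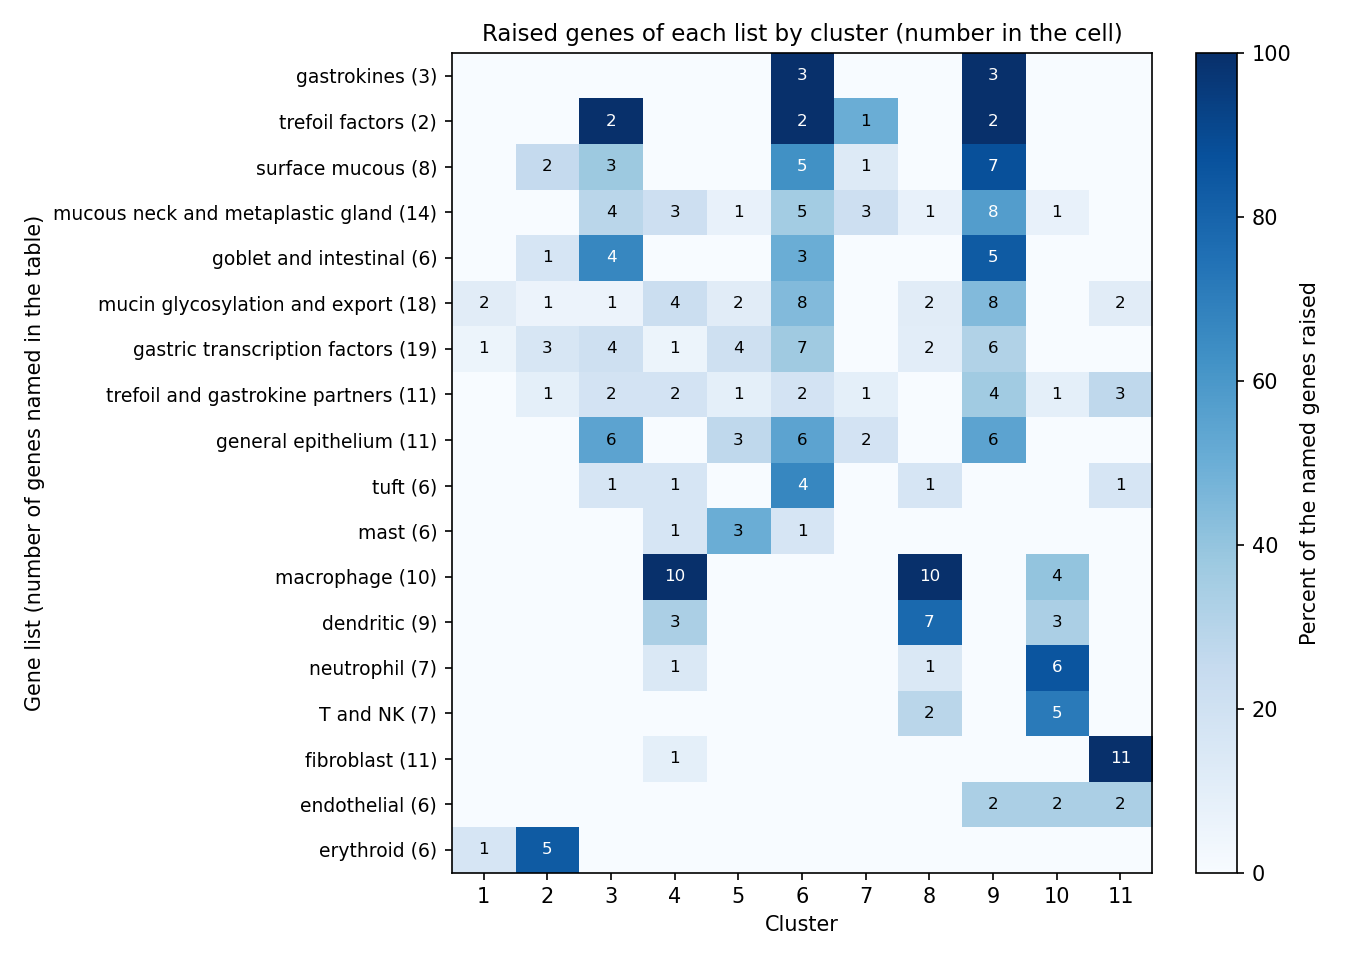
Number of raised genes of each list (rows, number of genes named in the table in brackets) in each cluster (columns), with the shade giving the percent of those named. The gastrokine row is filled in clusters 6 and 9 and the trefoil row in clusters 3, 6, 7 and 9, and macrophage, dendritic, neutrophil, T and NK, fibroblast and erythroid rows are empty in these 4. The mast row holds 1 raised gene in cluster 6, and the endothelial row 2 in cluster 9.

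The clusters that listed the members were checked against markers of other cells. Of 11 general epithelial genes, 6 were raised in each of clusters 3, 6 and 9, 3 in cluster 5 and 2 in cluster 7, with the median deposited fold of those listed at 2.91, 2.29, 2.03, 3.32 and 2.37 in clusters 3, 6, 9, 5 and 7. In cluster 3 the claudins Cldn3, Cldn7 and Cldn18 led the raised genes at 4.80, 4.37 and 2.91 per the authors' deposited table. In cluster 6 Cldn7, the keratin Krt19 and Cldn3 led the raised genes at 3.41, 2.94 and 2.92 according to the authors' deposited table. In cluster 9 Cldn7, Cldn18 and Cldn4 led the raised genes at 4.06, 2.83 and 2.76 per the authors' deposited table. In cluster 7 Krt18 at 2.81 and the cadherin Cdh1 at 2.74 were the 2 raised according to the authors' deposited table. Over the macrophage, dendritic, neutrophil, T and NK, fibroblast and erythroid lists, 50 markers are named in the table, and 0 of them were listed in clusters 3, 6, 7 and 9. The mast and endothelial lists are not among these 50. From them Mcpt4 in clusters 3 and 7, Mcpt1 in clusters 6 and 9 and Kdr in cluster 6 were listed but not raised. Their deposited folds were 1.68, 3.75, 1.71, 1.68 and 7.92, in that order. Cluster 5, where Gkn3 was listed, had 3 of the 50 listed and 0 raised, and 3 mast cell genes were raised there, the tryptase Tpsb2 at 403.5, the peptidase Cpa3 at 177.7 and Mcpt4 at 10.5 per the authors' deposited table. Tuft cell genes, markers of a chemosensory epithelial cell, had 4 of 6 named genes raised in cluster 6, with Gnat3 at 9.58, Trpm5 at 8.54 and Avil at 6.83 according to the authors' deposited table, and 0 in clusters 7 and 9. In cluster 3 the kinase Dclk1 was the single tuft cell gene raised, at 3.13, and it was also raised in cluster 11 at 2.31 according to the authors' deposited table. Endothelial genes had 2 of 6 named genes raised in cluster 9 and as many in clusters 10 and 11; in cluster 9 they were Cldn5 at 5.06 and Cdh5 at 2.7 according to the authors' deposited table. The mast cell receptor gene Kit was raised in cluster 6 at 4.26 and in cluster 4 at 5.32 per the authors' deposited table. The part of these other cell markers in the folds of the members was not tested. Of 7 chief cell genes the table names 2, and the secretory factor Bhlha15 at 2.57 and Adgrg2 at 2.13 were both raised in cluster 9, and Adgrg2 at 5.56 in cluster 11, according to the authors' deposited table. Of 6 parietal and 8 endocrine genes the table names 1 each, so it can say little of these cells. The histamine-forming enzyme Hdc, of the endocrine list, was raised in cluster 10 at 39.4 according to the authors' deposited table, beside 6 of 7 named neutrophil genes.

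Genes that lie beside the members in the genome were looked up in the same table. Next to Gkn1, the anthrax toxin receptor Antxr1 was raised in clusters 5 and 11, at 2.84 and 8.55 according to the authors' deposited table. Beyond it, Gfpt1, the first enzyme of the hexosamine pathway that feeds glycan synthesis, was listed in the clusters that listed Gkn3. In clusters 3, 5, 6 and 9 its folds were 2.23, 3.21, 1.90 and 1.92 per the authors' deposited table, and it was raised in none. These clusters listed 29.9%, 20.6%, 36.4% and 38.9% of all named genes, in the same order. Between Antxr1 and Gfpt1, D6Ertd527e was raised in cluster 11 at 7.67 according to the authors' deposited table. On the other side, Bmp10 was listed nowhere and Arhgap25 was raised in cluster 4 at 2.7 according to the authors' deposited table. Beside the trefoil genes, the lipid transporter Abcg1 was raised in cluster 10 at 2.76 per the authors' deposited table, and Tmprss3 and Ubash3a were listed nowhere. Rsph1, farther along from Tff1, was raised in cluster 9 at 7.59 and Glp1r in cluster 3 at 37.4 according to the authors' deposited table.

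The profiles of the members over the 11 clusters were compared as log2 folds, with a gene that is not listed set at log2 of 1.5. Gkn2 and Tff1 had a Pearson correlation of 0.95 and a Spearman correlation of 1, and Gkn1 and Gkn3 had 0.98 and 0.90. The Spearman correlation of Gkn1 was 0.985 with both Gkn2 and Tff1. With the other gastrokines, Gkn2 had lower Pearson correlations, 0.82 with Gkn1 and 0.74 with Gkn3. The lowest Pearson correlation among the members was that of Gkn3 with Tff2, 0.73. These values describe 11 clusters that share libraries and may share reference cells, with most points at the limit, and carry no test. Of 9088 genes listed in at least 3 clusters, 154 (1.69%) reached a correlation of 0.95 with Gkn1, 141 with Gkn2, 133 with Gkn3 and 131 with Tff1. With Tff2, which alone among the members is listed in cluster 7, only 2 did.

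The profiles most like each member belonged to genes of varied function. Nearest to Gkn1 were the helicase Ddx27, Gipc1, Ern2, Tnks1bp1 and Polr3e, with correlations of 0.998 to 0.99987. Ern2, the endoplasmic reticulum stress sensor of mucous cells, had folds of 3.77, 3.95 and 5.13 in clusters 3, 6 and 9 per the authors' deposited table. Among the nearest to Gkn2 were Lrba, Nbeal2, Ppm1k and E2f5, from 0.997 to 0.999, of which Lrba alone was listed in cluster 3. Nearest to Gkn3 were the carboxypeptidase Cpe, Agrn, Fam45a, Apob and Gna11, from 0.987 to 0.998. Cpe, which trims peptide hormones, had folds of 3.83, 1.94, 3.26 and 4.25 in clusters 3, 5, 6 and 9 according to the authors' deposited table, and was raised in clusters 3, 6 and 9. Nearest to Tff1 were Wfdc1, the receptor tyrosine kinase Erbb2, Cdc42bpa, Rtn4 and the neuropeptide Npy, from 0.998 to 0.99993. Erbb2 had 2.48, 5.74 and 3.82 in clusters 3, 6 and 9 per the authors' deposited table and was raised in clusters 6 and 9. Nearest to Tff2 were D10Wsu102e, Stk25, Samd10, Nat10 and the cochaperone Bag3, from 0.925 to 0.994. D10Wsu102e had 2.27, 3.29, 2.35 and 2.10 in clusters 3, 6, 7 and 9 according to the authors' deposited table and was raised in clusters 6 and 9 only.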

How the data were processed

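Single-cell libraries of 2 tumors were prepared by inDrop encapsulation and TruDrop, as the labels' protocols say. The submitters' processing notes name mm10, STAR 2.7.3a, Partek and DESeq2 3.5 without giving the step of each. How cells were filtered and clustered, how doublets were treated and how many cells each cluster held is not given in the sources used here. What the authors deposited is 1 table with, for each of 11 clusters, a ratio on a linear scale, named fold change in its header, and a p-value; every deposited fold is above 1.5, and genes are ordered by p within a cluster. There are 0 columns of single samples in it.

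The members and the lists were chosen with earlier results of these data known, and older symbols of a gene were counted once. Counts of raised genes (fold at least 2, p at most 0.05) are given beside the share of all 18319 named genes. Named genes were the members and Tff3, the 5 genes of highest correlation to each member (ribosomal, mitochondrially encoded and unnamed predicted genes left out), up to 3 raised genes of largest fold of each list in clusters with a raised member, and any raised gene of a list with at most 5 raised; some of these genes are not reported here. Other list genes, genomic neighbors and motifs were chosen after values were seen. The correlation ranking was checked on 20 simulated tables with planted near copies of a gene. That check says nothing of how stable the named genes are. Positions are from GENCODE M21, neighbors and promoter windows from RefSeq (GRCm38.p6). Python 3.11.15, pandas 2.3.3 and numpy 2.4.6 were used. Alternatives were folds of 1.5 and 3, no p limit and p limits of 0.01 and 0.001, and other correlation settings.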

Additional observations from a re-analysis of the deposited data

How the results depend on the processing

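No paired analysis was possible because there is 1 library of each tumor type and the result comes from no test of samples; leaving out a library was likewise not possible. In cluster 6, 5 members were raised under 3 of the 5 other thresholds, and 4 at a fold of at least 3. At a fold of at least 3, 0 members were raised in clusters 3 and 7 and 3 in cluster 9, and Gkn3, Tff1 and Tff2 were each raised in 1 cluster. At that fold, raised pairs of a gene of the other lists and a cluster numbered 59 in place of 114 over clusters 3, 6, 7 and 9. A gene raised in several clusters counts once for each. At a p of at most 0.001, 3 members were raised in cluster 6 and 0 in cluster 7, and Gkn2 and Gkn3 were each raised in 1 cluster. Without a p limit, 4 members passed in cluster 3. Of the 5 genes nearest to each member, 3 were kept for Gkn1, Gkn3, Tff1 and Tff2 and 1 for Gkn2 when Spearman correlation was used, counting ties, and 1 for every member without its cluster of largest fold. With unlisted genes at a log2 fold of 0, 3 were kept for Gkn1, Gkn3 and Tff1 and 0 for Gkn2, and with genes listed in at least 2 clusters 0 were kept for Gkn2. The nearest genes therefore depend on the measure. The unknown number of cells and transcripts per cluster limits every fold.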
